A study of Mus musculus with 7 samples.

Results

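The genes for semaphorins, ephrins, slits and netrins and for their receptors were examined in cultured mouse lung endothelial cells (MLEC). They were taken from the expression table by symbol, and 69 of its 38472 rows matched, which hold 68 symbols because *Efna5* is listed under 2 identifiers. Of these rows, 33 encode receptors (9 plexins, 9 EphA, 5 EphB, 4 Robo and 6 netrin receptors, among which neogenin and *Dcc* were counted). The other 36 encode ligands (7 class 3 and 13 class 4 to 7 semaphorins, 6 ephrin-A and 3 ephrin-B rows, 3 slits and 4 netrins). MLEC of wild type (WT) mice gave the 4 libraries a, c, e and f, and the 3 libraries b, d and g came from mice with adrenomedullin (AM) deleted in the endothelium (AM EC-KO), all of strain C57BL/6. In AM EC-KO animals, Cre recombinase driven by the VE-cadherin (Cdh5) promoter acts on an *Adm* gene flanked by loxP sites, so that only cells that use this promoter should lose the gene. Cells were isolated from the lungs of 3 mice with beads against PECAM-1, grown, sorted again with beads against ICAM-2 and used at passages 1 to 3. The study describes 3 to 4 isolates, and bars of its sequencing plot stand for 3 or more MLEC preparations, but no source used here ties a library to a preparation or gives the age of the mice. The p-values therefore set the difference between genotypes against the variation among these libraries, and some of that variation may be technical. Whether each library is an independent preparation is not known.

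Guidance molecules were first described as cues that steer growing axons, and vessels use the same families. Semaphorins signal through plexins, often with a neuropilin as co-receptor. Ephrins sit on the surface of 1 cell and bind Eph receptor kinases on its neighbour, so that both cells can receive a signal. Slits bind Robo receptors, netrins bind Dcc, neogenin and the Unc5 receptors, and in endothelium these pathways act on sprouting, on the arterial and venous identity of vessels and on the junctions between cells.

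Expression was given as FPKM, fragments per kilobase of transcript and per M mapped, so that levels of different genes could be set side by side. The 1-read steps among low values put the depth at 6.9 to 8.2 M reads per library, at which 1 read on a transcript of 5000 bases is worth 0.025 to 0.030 FPKM. An exact 0 in this table can be a failed estimate. In each library, 190 to 247 tested genes were listed at 0 although their median was at least 5 FPKM in the libraries in which they were above 0. *Adm*, the targeted gene, was at 48.2, 70.1, 76.1 and 43.8 FPKM in WT versus 9.31, 17.2 and 0.75 FPKM in AM EC-KO, without overlap (log2 fold change −3.10, adjusted p = 0.954 in limma). The summed FPKM of 12 endothelial markers was 3205 to 3695 in WT and 2979 to 3495 in AM EC-KO libraries, although *Vwf* was listed at 0 in 5 of the 7 libraries. The fitted log2 fold change was below 0 in 10 of the 11 tested markers. Its median was −0.19, against −0.01 over all tested genes. *Egfl7* was at −0.33 and *Cdh5* at −0.30, and only *Emcn*, which had the highest mean of these markers, was above 0 (0.26). None passed an adjusted p of 0.1 in limma. The overlap of the sums therefore does not show that these markers were at like levels. WT e stood apart. The sum of 8 fibroblast markers was 402 FPKM in WT e, against 18.2 to 52.1 in the other WT and 39.7 to 98.0 in AM EC-KO libraries, and 6 of the 8 markers were highest there, led by *Dcn*. The 9 lung epithelial markers summed to 13.8 FPKM in WT e and to 0.275 to 1.42 in the others. *Sftpc* was above 0 in WT e alone, whereas *Epcam* was at 0.035 FPKM and *Cdh1* and *Ager* were listed at 0 in that library. In bulk RNA, fewer cells of a type and less RNA per cell cannot be told apart. Library values are listed below in the order a, c, e and f for WT and b, d and g for AM EC-KO.

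MLEC expressed a large part of the guidance repertoire. In at least 1 genotype, 36 of the 69 rows averaged 1 FPKM or more, and 19 of them reached 10 FPKM. The 36 include 3 rows with libraries at 0, *Ephb4*, *Sema4c* and *Slit3*, whose averages rest on 1 or 2 libraries, and *Ephb4* is also among the 19. A further 11 rows were tested at lower levels, 10 were above 0 in some library but did not pass the filter for testing, and 12 were listed at 0 in every library. In all, 45 rows passed this filter, which asked for an average of 0.1 FPKM or more and for 3 libraries above 0, and 39 were above 0 in every library. In most families a single gene held the greater part of the family's summed FPKM. *Epha2* held 81.2 to 93.9% of the EphA sum across the 7 libraries, *Robo4* 81.2 to 89.0% of the Robo sum, *Unc5b* 70.2 to 84.4% of that of the netrin receptors, *Ntn4* 95.1 to 100% of that of the netrins and *Slit2* 82.6 to 100% of that of the slits. The semaphorins were the most evenly spread, and *Sema3f* held 34.8 to 58.0% of the class 3 sum.

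*Plxnd1*, the receptor of semaphorin 3E that patterns vessels during development, was the guidance gene with the highest mean. It was at 71.9, 101, 154 and 68.8 FPKM in WT versus 73.6, 86.4 and 86.4 FPKM in AM EC-KO, and its mean lay at percentile 92.9 of the tested genes. The AM EC-KO libraries fell inside the WT range, whose upper end was set by WT e, and without WT e the WT mean was 80.6 in place of 98.9 FPKM. *Plxnb2*, a receptor of class 4 semaphorins, followed among the plexins at 44.8, 38.6, 38.7 and 58.6 FPKM in WT versus 49.8, 41.6 and 55.7 FPKM in AM EC-KO. *Plxna1* and *Plxna2*, which pair with neuropilins to receive class 3 semaphorins, were expressed at like levels. *Plxna1* was at 23.8, 23.0, 14.8 and 24.8 FPKM in WT versus 25.4, 24.0 and 27.0 FPKM in AM EC-KO, and *Plxna2* was at 24.2, 26.6, 16.6 and 25.3 against 23.6, 21.9 and 22.4 FPKM. Both were lowest in WT e, and *Plxna1* exceeded *Plxna2* in 3 of 7 libraries. *Plxna4*, a receptor of semaphorin 3A and of class 6 semaphorins, was highest in WT e and was at 9.09, 11.9, 16.3 and 6.22 FPKM in WT versus 8.69, 9.29 and 5.94 FPKM in AM EC-KO. *Plxna3* and *Plxnc1*, the receptor of semaphorin 7A, were tested at means below 1 FPKM. *Plxnb1*, the receptor of semaphorin 4D, was listed at 0 in WT and at no more than 0.212 FPKM in AM EC-KO. Its authors' group values ran the other way, at 0.670 FPKM in WT versus 0.245 FPKM in AM EC-KO. *Plxnb3* was listed at 0 throughout.

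*Epha2*, the main receptor of ephrin-A1 on endothelial cells, was at 68.0, 67.6, 32.8 and 65.6 FPKM in WT versus 71.7, 62.4 and 61.9 FPKM in AM EC-KO. The 6 libraries other than WT e thus lay between 61.9 and 71.7 FPKM, and WT e was below all of them. *Epha4*, which binds ephrins of both classes, was far lower, at 5.62, 3.71, 3.42 and 11.3 FPKM in WT versus 5.88, 3.18 and 9.32 FPKM in AM EC-KO. *Epha1* was at 0.965, 0.668, 4.15 and 1.78 against 1.13, 1.02 and 2.18 FPKM. Its interval overlaps that of *Zyx* on the opposite strand, and the strand setting of the counting is not given in the sources used here. The other 6 EphA genes stayed below 0.05 FPKM in every library. Of these, *Epha5*, *Epha6* and *Epha7* were listed at 0 throughout, although their authors' group values were above 0 and reached 0.685 FPKM for *Epha7* in AM EC-KO. Among the EphB genes, *Ephb4*, the venous receptor of ephrin-B2, could not be read. It was listed at 64.2 FPKM in WT c and 59.0 FPKM in AM EC-KO g and at 0 in the other 5 libraries, and the authors' group values were 0 for both genotypes. *Ephb1* was at 0.801, 1.70, 3.75 and 1.26 FPKM in WT versus 1.42, 2.17 and 2.09 FPKM in AM EC-KO, and *Ephb3* at 2.48, 2.11, 0.805 and 1.36 against 1.97, 2.59 and 1.64 FPKM. In WT e, *Ephb1* was highest and *Ephb3* lowest. *Ephb6*, which lacks kinase activity, and *Ephb2* remained below 1 FPKM.

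*Unc5b*, the netrin receptor of endothelium, had the next highest mean after *Plxnd1*, which exceeded it in 5 of 7 libraries. It was at 90.4, 86.0, 48.0 and 47.2 FPKM in WT versus 78.0, 72.4 and 69.0 FPKM in AM EC-KO, so the WT libraries split into a pair above and a pair below all 3 AM EC-KO libraries. *Neo1*, which encodes neogenin, a receptor of netrins and of repulsive guidance molecules, was at 16.1, 16.4, 19.4 and 17.9 FPKM in WT versus 17.7, 15.9 and 12.6 FPKM in AM EC-KO. *Unc5c* and *Unc5d* were tested below 1 FPKM, *Dcc* reached 0.025 FPKM in WT c and f and was at 0 elsewhere, and *Unc5a* was listed at 0. *Robo4*, the Robo receptor of endothelium, was at 53.9, 59.8, 41.3 and 38.2 FPKM in WT versus 49.9, 58.3 and 43.4 FPKM in AM EC-KO. It exceeded *Plxnb2* in 5 of 7 libraries and was exceeded by *Epha2* in 6. *Robo3*, known for its role in axons that cross the midline, was at 11.9, 6.67, 3.98 and 4.27 FPKM in WT versus 6.53, 6.81 and 5.47 FPKM in AM EC-KO. *Robo3* ends 553 bases from the end of *Robo4* on the opposite strand of chromosome 9, so that reads past the end of either gene cannot be assigned without strand. *Robo1*, a receptor of slits, was at 0.646, 0.733, 2.23 and 2.24 FPKM in WT versus 1.02, 0.917 and 1.71 FPKM in AM EC-KO. *Robo2*, the other classical slit receptor, was above 0 only in WT f (0.311 FPKM) and AM EC-KO g (0.760 FPKM).

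**Figure D1:**
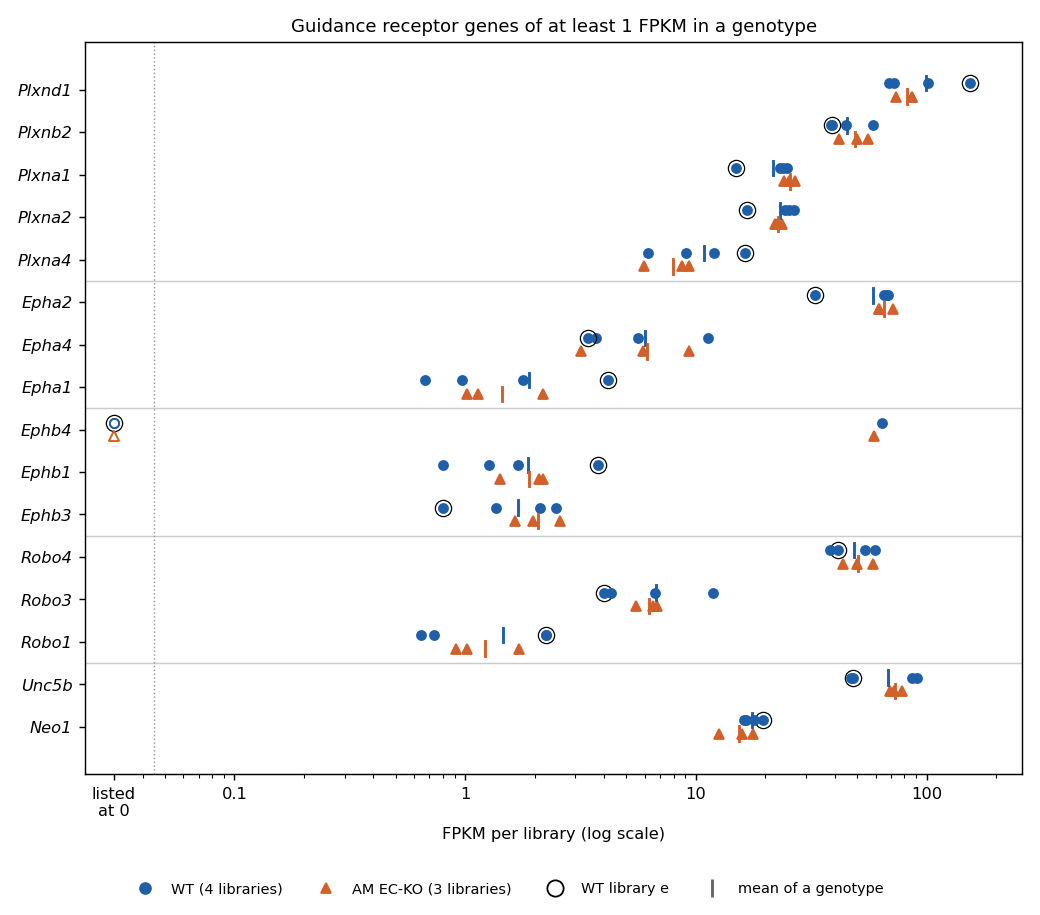
FPKM of the 16 guidance receptor genes that average 1 FPKM or more in a genotype, on a log axis, with a point for each library (circles WT, triangles AM EC-KO, ringed circle WT e), a bar for the mean of each genotype where no library is at 0, and open symbols for libraries listed at 0. The genotypes overlap for every gene, and WT e lies at 32.8 FPKM for *Epha2* with the other 6 libraries between 61.9 and 71.7 FPKM.

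The promoters of the plexin, Eph, Robo and netrin receptor gene with the highest mean among those above 0 in every library are shown, because these 4 genes lead the receptors in MLEC. The sequences are the 250 bases before the RefSeq start (GRCm38.p6), written 5′ to 3′ on the strand of the gene, and capitals mark each GC box (GGGCGG or its reverse complement CCGCCC), a short GC-rich element common in promoters without a TATA box.
*Plxnd1* (chr6:115995006-115995255, minus strand): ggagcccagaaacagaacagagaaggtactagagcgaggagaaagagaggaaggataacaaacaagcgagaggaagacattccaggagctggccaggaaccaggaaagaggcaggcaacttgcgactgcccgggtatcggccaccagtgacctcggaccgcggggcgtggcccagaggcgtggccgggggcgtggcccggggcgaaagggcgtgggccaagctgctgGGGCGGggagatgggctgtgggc
*Epha2* (chr4:141300971-141301220, plus strand): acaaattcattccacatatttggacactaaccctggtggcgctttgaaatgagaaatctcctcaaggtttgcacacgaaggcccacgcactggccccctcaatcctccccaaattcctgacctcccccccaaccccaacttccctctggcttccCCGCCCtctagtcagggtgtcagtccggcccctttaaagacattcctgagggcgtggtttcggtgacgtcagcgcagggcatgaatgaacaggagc
*Robo4* (chr9:37401722-37401971, plus strand): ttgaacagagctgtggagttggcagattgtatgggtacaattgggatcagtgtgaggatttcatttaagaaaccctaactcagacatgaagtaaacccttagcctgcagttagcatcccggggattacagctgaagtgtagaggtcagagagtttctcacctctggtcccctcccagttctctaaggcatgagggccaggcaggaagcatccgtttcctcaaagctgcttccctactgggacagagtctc
*Unc5b* (chr10:60831582-60831831, minus strand): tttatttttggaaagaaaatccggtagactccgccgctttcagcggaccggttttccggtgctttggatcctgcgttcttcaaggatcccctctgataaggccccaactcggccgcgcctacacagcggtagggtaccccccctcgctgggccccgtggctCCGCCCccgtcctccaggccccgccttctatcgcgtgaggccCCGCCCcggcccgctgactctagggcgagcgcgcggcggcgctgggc

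*Plxnd1* and *Epha2* each held 1 GC box in this window, *Unc5b* held 2 and *Robo4* none, and their GC contents were 64.8, 55.6, 66.8 and 49.6%. The GC box was present in 70.3% of the 74 windows of the 58 guidance symbols that the RefSeq table holds, against 32.7% of all 32851 windows, whose median GC content was 52.4% against 64.4% for the guidance genes. It was present in 16 of 18 windows of guidance genes at 10 FPKM or more and in 21 of 35 windows of those below 1 FPKM, and the median GC content of these groups was 64.8 and 64%. CGGAAG, a core bound by ETS factors, was searched on both strands as well. It was in 13.6% of all windows and in 6 of the 74 guidance windows, and in none of the 4 shown. These are matches of letters and no measure of binding.

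Among the ligands, *Ntn4*, a netrin of the basement membrane that binds laminin, had the highest mean. It was at 35.4, 51.6, 52.9 and 35.5 FPKM in WT versus 40.4, 45.9 and 38.5 FPKM in AM EC-KO, where all 3 libraries fell inside the WT range, and it exceeded *Sema3f*, the next by mean, in 7 of 7 libraries. Each of the other netrins was above 0 in 1 library. *Ntn1*, the classical secreted netrin, was at 1.83 FPKM in WT f and listed at 0 in the other 6 libraries, although the authors' group values were 1.62 for WT and 1.65 FPKM for AM EC-KO. *Ntn3* was at 0.923 FPKM in AM EC-KO g, with authors' group values of 0.978 FPKM in WT versus 0.645 FPKM in AM EC-KO, and *Ntn5* at 0.089 FPKM in WT c. Of the slits, *Slit2* was at 6.96, 10.7, 28.2 and 18.6 FPKM in WT versus 10.2, 15.9 and 18.4 FPKM in AM EC-KO. *Slit3* was at 0.062, 0.146, 5.93 and 0.226 FPKM in WT versus 0, 0.568 and 0 FPKM in AM EC-KO, so its level rested on WT e, the library with the high fibroblast and epithelial markers, whose part in it was not tested. *Slit1* was listed at 0 except for 0.026 FPKM in AM EC-KO g.

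*Sema3f*, which signals through neuropilin-2 and repels endothelial cells, was the highest semaphorin by mean. It was at 26.9, 45.4, 46.8 and 34.1 FPKM in WT (38.3 ± 9.48, SD, n = 4) versus 24.4, 31.2 and 25.2 FPKM in AM EC-KO (26.9 ± 3.73, SD, n = 3). Only WT a lay within the AM EC-KO range. *Sema3a*, the ligand of neuropilin-1, was at 11.6, 15.1, 25.0 and 21.0 FPKM in WT versus 12.4, 18.7 and 15.3 FPKM in AM EC-KO. *Sema3e*, which binds plexin D1 without a neuropilin, was at 12.9, 11.4, 2.94 and 14.5 FPKM in WT versus 15.5, 13.8 and 15.8 FPKM in AM EC-KO. WT e was low, and without it the WT mean moved from 10.4 to 12.95 FPKM. *Sema3c*, best known for its role in the cardiac outflow tract, varied widely, at 3.08, 4.15, 11.7 and 21.3 FPKM in WT versus 4.999, 7.72 and 12.1 FPKM in AM EC-KO. *Sema3d* was at 1.91, 1.84, 2.89 and 1.96 FPKM in WT versus 2.50, 2.50 and 2.65 FPKM in AM EC-KO, where all 3 libraries lay above every WT library but WT e. *Sema3a*, *Sema3c*, *Sema3d* and *Sema3e* are all on chromosome 5, between 12383385 and 17730268 (GRCm38). *Sema3g* was tested below 1 FPKM and *Sema3b* was listed at 0 throughout.

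The class 4 to 7 semaphorins are mostly bound to the membrane. *Sema6d*, a ligand of plexin A1, was at 7.31, 8.11, 13.2 and 8.35 FPKM in WT versus 7.66, 10.1 and 10.6 FPKM in AM EC-KO. *Sema7a*, which is held by a glycolipid anchor and binds integrins and plexin C1, was at 4.19, 14.3, 20.9 and 3.02 FPKM in WT versus 4.96, 13.1 and 3.08 FPKM in AM EC-KO, so that libraries of either genotype were high or low. *Sema6b*, a ligand of plexin A4, was at 4.58, 7.95, 12.7 and 7.25 FPKM in WT versus 5.35, 5.58 and 5.81 FPKM in AM EC-KO. The WT libraries spread on both sides of the narrow AM EC-KO range. *Sema4b* was at 1.06, 1.27, 2.004 and 3.31 against 1.75, 1.94 and 1.67 FPKM. *Sema4c*, a ligand of plexin B2, was listed at 12.4 FPKM in WT e and at 0 in the other 6 libraries, whereas the authors' group values were 7.35 FPKM in WT versus 4.51 FPKM in AM EC-KO. *Sema5a* and *Sema4f* were tested below 1 FPKM.

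The ephrin ligands were led by *Efna1* and *Efnb2*. *Efna1*, a ligand that inflammatory cytokines induce in endothelium, was at 15.8, 36.7, 61.2 and 20.03 FPKM in WT versus 16.99, 25.0 and 22.2 FPKM in AM EC-KO. *Efnb2*, the marker of arterial endothelium among the ephrins, was at 26.1, 24.1, 18.6 and 32.1 FPKM in WT versus 25.7, 23.6 and 35.2 FPKM in AM EC-KO. These genes were highest and lowest in WT e, respectively, and *Efna1* exceeded *Efnb2* in 3 of 7 libraries. *Efna4* was at 5.88, 5.62, 6.99 and 6.76 FPKM in WT versus 4.08, 4.19 and 5.99 FPKM in AM EC-KO. *Efna3* was at 5.22, 8.24, 4.05 and 2.09 FPKM in WT versus 7.22, 9.61 and 3.01 FPKM in AM EC-KO. *Efna1*, *Efna3* and *Efna4* are neighbours on chromosome 3, with gaps of 32756 and 10424 bases, and *Efna3* and *Efna4* each overlap an antisense transcript. *Efnb1* was at 5.40, 9.45, 7.98 and 6.18 FPKM in WT versus 7.95, 9.37 and 6.29 FPKM in AM EC-KO. The *Efna5* row with an entry in GENCODE M21 was at 2.74 to 5.78 FPKM in WT versus 3.29 to 4.15 FPKM in AM EC-KO. The other *Efna5* row was at 0.443 to 1.35 and 1.01 to 2.08 FPKM, and since the rows share a symbol their reads may have been divided between them. *Efna2* and *Efnb3* were tested below 1 FPKM.

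**Figure D2:**
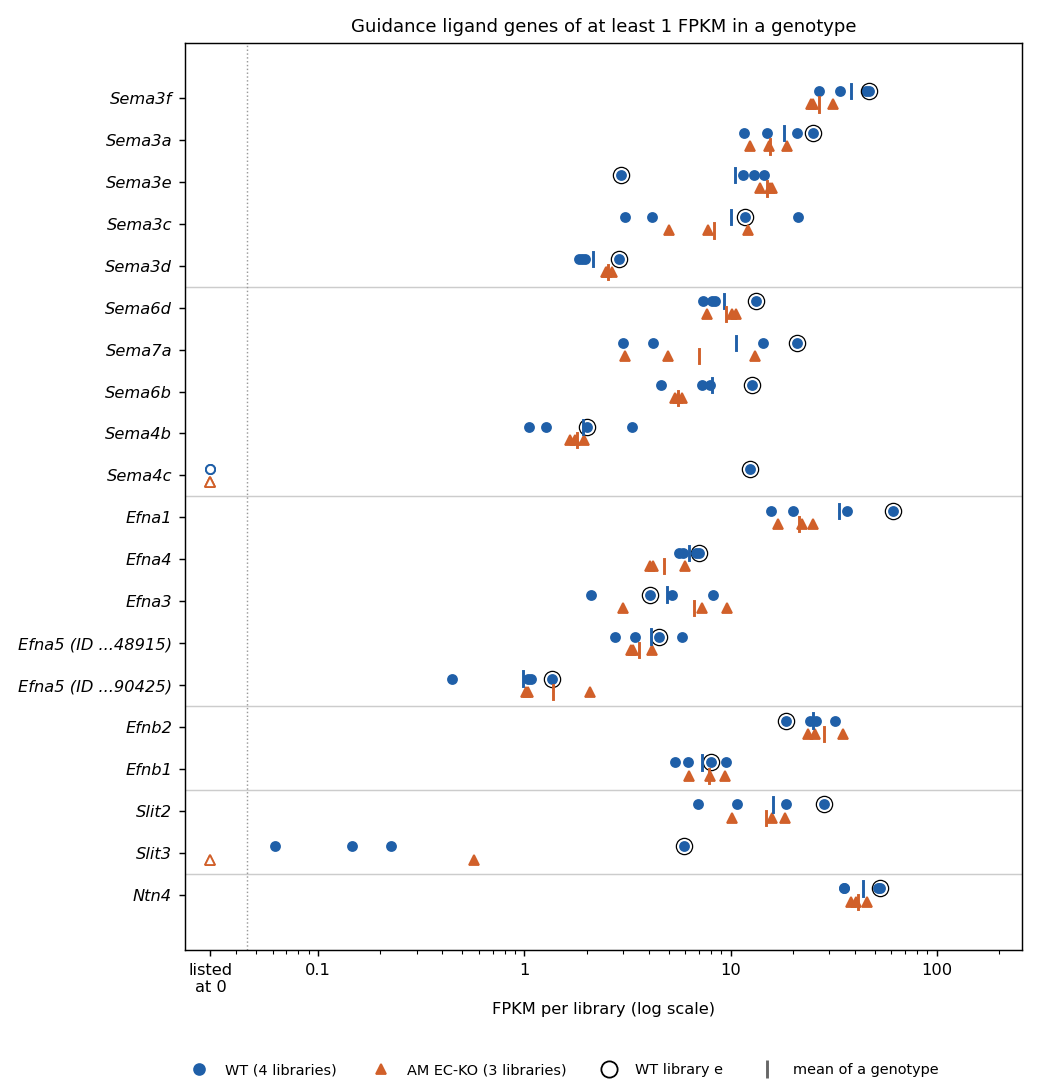
FPKM of the 20 guidance ligand rows that average 1 FPKM or more in a genotype, on a log axis, drawn with a point for each library, a bar for the mean of each genotype where no library is at 0 and open symbols at 0. *Ntn4* is at 35.4 to 52.9 FPKM in all 7 libraries, while *Sema4c* and *Slit3* are above 1 FPKM in WT e alone.

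The rows at 0 in every library were not all without signal in the authors' own group values. Of these 12 rows, 10 had a group value above 0 and 3 had one of at least 1 FPKM. *Sema4d*, the ligand of plexin B1, had group values of 1.80 FPKM in WT versus 1.08 FPKM in AM EC-KO. *Sema6a* had 1.80 and 0.894 FPKM and *Sema6c* had 0.738 and 1.86 FPKM. *Plxnb3* and *Sema3b* were at 0 in the group values as well. For these rows the library values therefore do not show that the gene is off.

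The comparison of AM EC-KO with WT asks whether loss of AM in endothelium goes along with other levels of guidance genes in cultured MLEC. No guidance gene passed the test. Of the 45 tested, 0 had an adjusted p under 0.1 in limma, a linear model on log2(FPKM + 1) with Benjamini-Hochberg adjustment over all 15604 tested genes, of which 0.0641% (10 genes) passed. The adjusted p-values of the guidance genes ran from 0.954 to 0.999. At an unadjusted p under 0.05, 1 guidance gene was higher in AM EC-KO and 0 were lower, and over all tested genes 1.65% were higher and 1.42% lower at that level. The fitted log2 fold change was above 0 in 24 guidance genes and below 0 in 21. Its median was 0.02 against −0.01 over all tested genes, and the median of its absolute value was 0.13 in both. Library values of AM EC-KO lay above all those of WT in 1 guidance gene and below them in 0, and over all tested genes these shares were 2.91 and 2.22%.

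The test had limited reach for these genes. *Adm*, the targeted gene, did not pass either, at a log2 fold change of −3.10 (SE 0.75, adjusted p = 0.954 in limma). The median SE of the log2 fold change was 0.26 for guidance genes and 0.17 for all tested genes. The 95% interval stayed between −1 and 1 on the log2 scale, that is within a doubling or halving of FPKM + 1, for 33 of the 45, and for 23 of the 34 tested rows at 1 FPKM or more. Among the highest receptors, the interval of the log2 fold change ran from −0.85 to 0.47 for *Plxnd1*, from −0.45 to 0.79 for *Unc5b*, from −0.41 to 0.84 for *Epha2* and from −0.35 to 0.51 for *Robo4*. It was wider for ligands that varied between libraries, with −1.48 to 1.49 for *Sema3c*, −2.08 to 1.31 for *Sema7a* and −1.51 to 0.62 for *Efna1*.

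*Ephb2*, a receptor of B-class ephrins, was the 1 gene with an unadjusted p under 0.05 and without overlap. It was listed at 0.247, 0, 0 and 0 FPKM in WT versus 0.636, 0.661 and 0.389 FPKM in AM EC-KO. Every AM EC-KO library was thus above every WT library, at levels below 1 FPKM and with 3 WT libraries at 0, which can be failed estimates. *Ephb2* passed the filter for testing only through the AM EC-KO libraries, so a gene with these WT values had to be higher there to be tested, and its p-values and lack of overlap depend on that choice. The log2 fold change on the scale of FPKM + 1 was 0.56 (SE 0.13, unadjusted p = 0.003, adjusted p = 0.954 in limma), and with a pseudocount of 0.1 FPKM it was 2.25 (adjusted p = 0.944 in limma). The exact two-sided permutation test over the 35 assignments of libraries gave p = 0.057, the smallest it can give. The authors' group values were 0.308 FPKM in WT versus 0.581 FPKM in AM EC-KO.

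The next smallest p-values among the guidance genes belonged to *Sema3f* and *Efna4*, with lower means in AM EC-KO. The log2 fold change of *Sema3f* was −0.47 (SE 0.21, unadjusted p = 0.060, adjusted p = 0.954 in limma) and the exact permutation p was 0.11. The genotypes overlapped through WT a. With a library left out its log2 fold change ran from −0.62 without WT a to −0.36 without WT e (adjusted p = 0.852 and 1.00 in limma). For *Efna4* the log2 fold change was −0.36 (SE 0.17, unadjusted p = 0.074, adjusted p = 0.954 in limma). On the scale of FPKM + 1, the fitted difference farthest above 0 was that of *Sema3e*, at 0.66 (SE 0.47, adjusted p = 0.954 in limma), where WT e alone was at 2.94 FPKM, and without WT e it was 0.20. That farthest below 0 on this scale was that of *Slit3*, at −0.63 (SE 0.68, adjusted p = 0.954 in limma), and without WT e it was 0.02. The order depends on the pseudocount, since with 0.1 FPKM *Sema3e* was at 0.74 and *Slit3* at −1.49, and *Ephb2* lay above *Sema3e*.

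**Figure D3:**
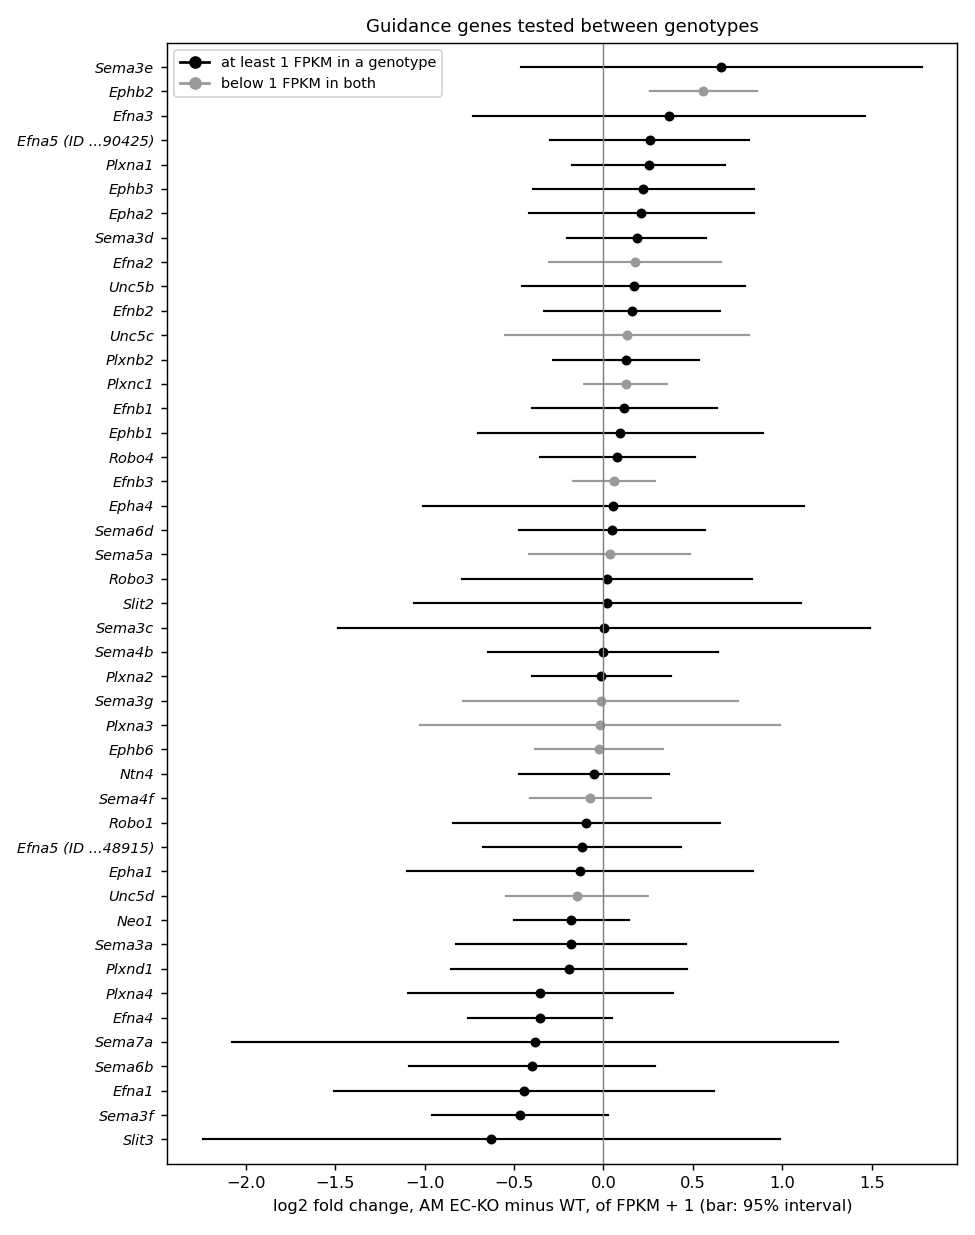
Log2 fold change of FPKM + 1 between AM EC-KO and WT for the 45 tested guidance rows, ordered by size, with 95% intervals from limma as bars (black, at least 1 FPKM in a genotype; grey, below 1 FPKM in both). All intervals but that of *Ephb2* (0.26 to 0.86) include 0, and no row has an adjusted p under 0.1.

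Many of the extreme values lay in WT e and WT a. Of the 33 named guidance rows above 0 in every library, WT e held the highest value of 15 and the lowest of 7. *Sema7a*, *Efna1*, *Plxnd1*, *Slit2* and *Plxna4* were among those highest in WT e, and *Epha2*, *Sema3e*, *Efnb2*, *Plxna1* and *Plxna2* among those lowest. WT a held the lowest value of 13 and the highest of 2, and each of the other 5 libraries held between 1 and 6 highest and 1 and 5 lowest values. The same counts were not made over all tested genes, so they do not show that guidance genes differ from other genes in this. The sum of fibroblast markers, 402 FPKM in WT e and 18.2 FPKM in WT a, was also at its highest and lowest in these libraries. Its part in these levels was not tested.

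Some genes also separated libraries e, f and g from a, b, c and d, across genotypes. *Sema3c* was at 11.7 to 21.3 FPKM in e, f and g and at 3.08 to 7.72 FPKM in a to d. *Slit2* was at 18.4 to 28.2 against 6.96 to 15.9 FPKM and *Robo1* at 1.71 to 2.24 against 0.646 to 1.02 FPKM. In the other direction, *Efna3* was at 2.09 to 4.05 against 5.22 to 9.61 FPKM, *Robo3* at 3.98 to 5.47 against 6.53 to 11.9 FPKM and *Robo4* at 38.2 to 43.4 against 49.9 to 59.8 FPKM. *Unc5b* was likewise lower in e, f and g (47.2 to 69.0 FPKM) than in a to d (72.4 to 90.4 FPKM). So was *Ephb3*, at 0.805 to 1.64 against 1.97 to 2.59 FPKM. Higher in e, f and g were also *Efna4* (5.99 to 6.99 against 4.08 to 5.88 FPKM) and *Epha1* (1.78 to 4.15 against 0.668 to 1.13 FPKM). The same held for *Efna5*, at 4.15 to 5.78 against 2.74 to 3.42 FPKM in the row with a GENCODE entry. Its other row was at 1.08 to 2.08 against 0.443 to 1.04 FPKM. These genes were picked after their values were seen, and the sources used here do not say what the letters stand for. How many of all tested genes separate in this way was not counted. With a term for libraries e to g in the model, 0 guidance genes passed an adjusted p of 0.1.

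**Figure D4:**
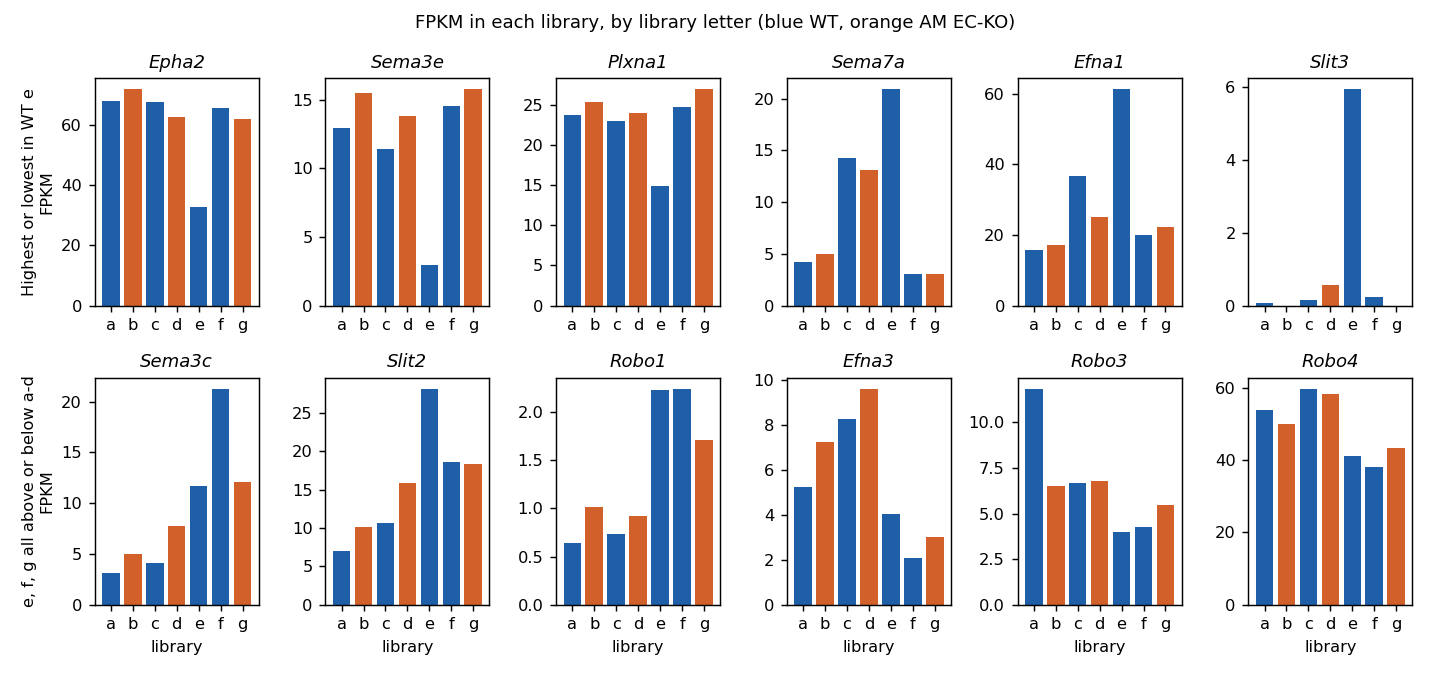
FPKM of 12 guidance genes in each library, ordered by letter (blue WT, orange AM EC-KO), each panel with its own axis from 0. The upper row shows genes highest or lowest in WT e, such as *Slit3* at 5.93 FPKM, and the lower row shows genes whose values in e, f and g lie all above or all below those in a to d, such as *Robo1*.

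The partners of these pathways that the symbols of the families do not cover gave a like picture. Of 35 rows for semaphorin co-receptors and effectors, 29 were tested, and 0 passed an adjusted p of 0.1 in limma. At an unadjusted p under 0.05, 1 was higher in AM EC-KO, *Plxdc1*, at 0, 0.152, 0.145 and 0 FPKM in WT versus 0.283, 0.534 and 0.167 FPKM in AM EC-KO. Over all tested genes, 1.65% were higher and 1.42% lower at that level. Like *Ephb2*, *Plxdc1* passed the filter only through the AM EC-KO libraries. The neuropilins were expressed in every library, *Nrp2* at 53.4 to 70.8 FPKM in WT versus 63.7 to 66.6 FPKM in AM EC-KO and *Nrp1* at 14.3 to 28.9 and 18.6 to 30.4 FPKM. Their log2 fold changes were 0.06 (SE 0.10) and 0.08 (SE 0.27). *Rap1b*, a GTPase on which plexins act, was at 96.3 to 121 FPKM in WT and 111 to 127 FPKM among the AM EC-KO libraries. *Plxdc2* was at 10.4 to 26.0 and 22.4 to 25.3 FPKM. Neither of these genes passed the test.

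Of 29 rows for effectors of Eph receptors and ephrins, 24 were tested, 0 passed and 1 was lower in AM EC-KO at an unadjusted p under 0.05. It was *Sh3kbp1*, which was listed at 0 in WT a and in all AM EC-KO libraries while the authors' group values were 20.05 FPKM in WT versus 20.4 FPKM in AM EC-KO. These zeros can be failed estimates. *Sh3kbp1* passed the filter only through the WT libraries, so its p-value depends on that choice. Over all tested genes, 1.65% were higher and 1.42% lower at an unadjusted p under 0.05. *Anks1*, an adaptor of Eph receptors, was at 5.77, 6.70, 8.80 and 13.3 FPKM in WT versus 5.27, 5.22 and 0 FPKM in AM EC-KO. Its 0 in AM EC-KO g can be a failed estimate, and the authors' group values were 9.47 FPKM in WT versus 6.82 FPKM in AM EC-KO. *Sdcbp* (syntenin), which binds the tail of B-class ephrins, was at 193 to 216 and 189 to 191 FPKM, and *Pick1* at 7.57 to 8.40 and 6.25 to 7.84 FPKM. *Anks1* and *Sdcbp* lay below WT in all 3 AM EC-KO libraries without overlap, as did 2.22% of all tested genes, with adjusted p = 0.954 in limma. Of 37 rows for partners of slits, Robo receptors and netrins, 25 were tested, 0 passed and 0 were under an unadjusted p of 0.05. The smallest p-values there were those of *Sdc3*, *Vasp*, *Dapk1* and *Sos2*. *Sdc3*, a heparan sulfate proteoglycan, was at 43.0 to 65.1 FPKM in WT versus 61.5 to 75.7 FPKM in AM EC-KO, and *Vasp*, an actin regulator, at 66.0 to 95.3 and 65.5 to 71.1 FPKM. *Dapk1*, a kinase that binds the netrin receptor Unc5b, was at 7.16, 6.13, 11.9 and 12.97 FPKM in WT versus 5.77, 4.74 and 8.94 FPKM in AM EC-KO, with overlap. *Sos2*, an exchange factor for Ras, was at 6.31, 6.07, 7.41 and 6.06 FPKM in WT versus 5.80, 5.57 and 5.47 FPKM in AM EC-KO. Every AM EC-KO library lay below WT, as in 2.22% of all tested genes (unadjusted p = 0.225, adjusted p = 0.954 in limma). The median log2 fold change of the lists was 0.08 for the semaphorin, −0.11 for the Eph and −0.06 for the slit and netrin partners, against −0.01 over all tested genes.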

How the data were processed

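Poly(A) RNA of MLEC was sequenced in 4 WT and 3 AM EC-KO libraries, grouped by their labels. The authors trimmed reads with Cutadapt, mapped them to GRCm38 with TopHat2 2.0.6 and used Cufflinks and Cuffdiff, per the methods and the submitters' processing notes. The authors deposited a table of FPKM per gene for each library and, as their own value, for each genotype. It also holds the authors' fold changes, p-values, q-values and splicing scores, which were not used. Of 38472 rows, 172 hold no library values.

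Log2(FPKM + 1) was fitted here in R 4.3.3 with the package limma 3.58.1, using moderated variances and a mean-variance trend (statmod 1.5.0 gave array weights). The fit covered the 15604 genes that averaged 0.1 FPKM or more and were above 0 in 3 or more libraries. Python 3.11.15 (pandas 2.3.3, numpy 2.4.6, matplotlib 3.10.9) served for tables and plots. P-values were adjusted over all tested genes at 0.1. The exact two-sided permutation test used all 35 assignments and allows no p below 0.057. The code was tested on simulated data. Means are not given for genes with a library at 0.

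Read depth was estimated from 1-read steps in low values, of which 68.4 to 73.0% lay within 0.1 read of a whole number (20% if even). Whole reads were not recovered, so no count model was fitted. Coordinates are GENCODE M21 (GRCm38), which holds 67 of the 69 rows by identifier, and promoters are from RefSeq (GRCm38.p6). Of 36 named rows with an entry, 17 overlap a gene on the opposite strand, 3 of them a protein-coding gene, and the strand setting is not given in the sources used here.

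Named with library values are guidance genes at 1 FPKM or more in a genotype, at an unadjusted p under 0.05 or without overlap, and up to 4 genes of each partner list by smallest p, of which 1 is not reported here. The members and all lists were chosen with earlier results of these data known. Marker lists cover endothelium (general, arterial, venous and capillary, lymphatic), fibroblasts, smooth muscle and pericytes, macrophages, lung epithelium, and Schwann cells and neurons. The alternatives were a pseudocount of 0.1, 3 other filters, trimmed-mean factors, quantile normalization, TPM, limma without trend or with array weights, a term for libraries e to g, and each library left out in turn. A block of neighbouring letters was chosen after seeing the data.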

Additional observations from a re-analysis of the deposited data

Results flagged for a closer look

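Of the 37 named guidance rows, 6 had a WT library far from the other 3 by Dixon's test, which flags about 1 in 20 groups of 4 by chance. In 4 of the 6 this was WT e. *Epha2* was at 32.8 FPKM there, versus 65.6 to 68.0 FPKM in WT a, c and f. *Sema3d* was at 2.89 FPKM in WT e against 1.84 to 1.96 FPKM, *Slit3* at 5.93 FPKM against 0.062 to 0.226 FPKM, and *Sema4c* at 12.4 FPKM against 0. The sums of fibroblast markers (402 FPKM) and lung epithelial markers (13.8 FPKM) were also highest in WT e, and their part in these values was not tested. *Ephb4* was at 64.2 FPKM in WT c and listed at 0 in the other 3 WT libraries. *Ephb2* was at 0.247 FPKM in WT a and listed at 0 in the other 3. For *Sema4c*, *Ephb4* and *Ephb2* any single value above 0 beside 3 zeros meets the test, and such zeros can be failed estimates, so that 3 of the 6 rows (*Epha2*, *Sema3d* and *Slit3*, each through WT e) rest on values above 0 in all 4 WT libraries. *Slit3* and *Sema4c* reached the average of 1 FPKM needed to be named only through WT e. Their flags therefore depend on that choice and cannot be set against the rate of 1 in 20.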

How the results depend on the processing

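Depth limits genes of low FPKM most, and exact zeros and the 7 libraries limit every comparison. No guidance gene passed an adjusted p of 0.1 under any alternative run, and none of the 591 alternative log2 fold changes of 35 named rows changed its call (adjusted p 0.368 to 1.00). Of these, 59 changed sign, in 20 rows. The cause was not tested. Guidance genes at an unadjusted p under 0.05 numbered 2 without a filter (*Ephb2* and *Plxnb1*), 2 in limma without trend, 2 with array weights and 2 with the term for libraries e to g (*Ephb2* and *Efna4* each time), 0 with a filter at a mean of 1 FPKM, and 1 to 3 with a library left out (3 without WT a, 2 without WT e or AM EC-KO g). Of all tested genes, 3.32, 3.12, 4.65, 3.76 and 2.65% were at that level with these 5 settings, 1.86 to 3.98% with a library left out (3.98% without WT a, 3.17% without WT e and 2.50% without AM EC-KO g), and 3.07% in the fit reported. The place of *Plxnb1* at that level rested on zeros in all 4 WT libraries, which can be failed estimates. With genes above 0 in every library, *Ephb2* was not tested and *Sema3f* was the 1 gene at that level (2.72% of all tested genes). Guidance genes without overlap numbered 0 with either of these last 2 filters, 3 after quantile normalization, and 2 to 6 with a library left out (6 without AM EC-KO d, 4 without WT e, 3 without WT a or f and 2 without WT c, AM EC-KO b or g). Of all tested genes, 5.13% were without overlap in the fit reported, 5.43% after quantile normalization and 8.03 to 13.1% with a library left out (10.3% without AM EC-KO d and 8.03% without WT e). All genes past an adjusted p of 0.1 numbered 10, 18 with a pseudocount of 0.1, 0 with genes above 0 in every library and 8 to 39 with a library left out (39 without WT a, 27 without WT e, 22 without WT c and 21 without WT f). Partner genes past it numbered 0 to 1, with the 1 without WT a.

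The labels of the genotypes share no replicate number, and no source used here pairs the letters. A block of neighbouring letters put a with b, c with d and f with g. WT e was alone in its block, so that fit took the genotype difference without WT e. With a replicate block of neighbouring letters, 4 guidance genes had an unadjusted p under 0.05 (*Efna3*, *Ephb1*, *Ephb2* and *Sema3f*; 5.93% of all tested genes), 0 guidance genes and 11 genes in all passed an adjusted p of 0.1.

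The log2 fold changes that changed sign, all near 0 or in the spread of the libraries, were these. *Sema4b* was at 0.037 with a pseudocount of 0.1, 0.0067 with trimmed-mean factors, 0.012 after quantile normalization, 0.15 with array weights and 0.065 with the term for e to g. *Plxna2* was at 0.0075 after quantile normalization, and *Sema3c* and *Slit2* at −0.011 and −0.0055 as TPM. Array weights gave −0.058 for *Epha4*, 0.077 for *Epha1*, −0.20 for *Robo3*, 0.059 for *Robo1*, −0.0076 for *Unc5b* and 0.021 for *Ntn4*, and the term for e to g gave 0.017 for *Epha1*, −0.090 for *Robo3* and 0.028 for *Robo1*. With a library left out, the ranges were −0.041 to 0.30 for *Epha2*, −0.26 to 0.39 for *Epha4*, −0.35 to 0.19 for *Epha1*, −0.098 to 0.37 for *Ephb1*, −0.028 to 0.19 for *Robo4*, −0.15 to 0.31 for *Robo3* and −0.27 to 0.061 for *Robo1*. They were −0.36 to 0.45 for *Sema3c*, −0.040 to 0.22 for *Sema6d*, −0.89 to 0.036 for *Sema7a*, −0.15 to 0.21 for *Sema4b*, −0.26 to 0.026 for *Efna5* (ENSMUSG00000048915), −0.0050 to 0.28 for *Efnb2*, −0.0049 to 0.25 for *Efnb1*, −0.14 to 0.045 for *Ntn4*, −0.34 to 0.043 for *Plxnd1*, −0.16 to 0.059 for *Plxna2*, −0.29 to 0.34 for *Slit2* and −0.88 to 0.024 for *Slit3*.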

Other observations

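Libraries with neighbouring letters had like levels of some guidance genes across genotypes. *Sema7a* was at 4.19 and 4.96 FPKM in a (WT) and b (AM EC-KO), at 14.3 and 13.1 FPKM in c (WT) and d (AM EC-KO) and at 3.02 and 3.08 FPKM in f (WT) and g (AM EC-KO). *Efna3* was at 5.22 and 7.22, 8.24 and 9.61, and 2.09 and 3.01 FPKM in the same order, and *Plxna4* at 9.09 and 8.69, 11.9 and 9.29, and 6.22 and 5.94 FPKM. These genes were picked after their values were seen, and no source used here says that the letters pair libraries.

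Markers of other endothelial and mural types were also read, with 0 genes past an adjusted p of 0.1 in limma in each list. The summed FPKM of 11 arterial markers was 81.8 to 153 in WT and 99.3 to 111 in AM EC-KO libraries, that of 8 venous and capillary rows 406 to 625 and 338 to 423, and that of 7 lymphatic markers 216 to 293 and 152 to 206. At an unadjusted p under 0.05, 1 of 10 tested arterial genes was higher in AM EC-KO. Lower were 1 of 11 tested general endothelial, 1 of 7 venous and capillary and 1 of 7 lymphatic genes. Over all tested genes, 1.65% were higher and 1.42% lower at that level. The 9 smooth muscle and pericyte markers summed to 330 to 629 FPKM in WT and 501 to 675 FPKM in AM EC-KO, with 1 gene higher at that level. The 9 macrophage rows summed to 51.4 to 131 and 53.8 to 233 FPKM, and the 8 Schwann cell and neuron markers to 0.102 to 3.78 and 0.632 to 1.25 FPKM, with 0 genes at that level in either.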
